A study of Mus musculus with 25 samples.

Results

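RNA levels of 45 DNA replication genes, out of 23116 genes in the deposited table, were examined in HSLAM cells after deletion of *Znf143*. The genes were chosen by their known role in replication, at a time when earlier results of these data were known. All 45 were in the table and passed the filter on low values. They fall into 8 groups by role, namely origin licensing (9 genes), the MCM helicase (6), helicase activation (6), the sliding clamp and its loader (6), the replicative polymerases and primase (9), single-strand binding by RPA (3), nucleotide supply (4) and the joining of Okazaki fragments (2).

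HSLAM cells are the LSK+ CD150+ CD48- population of the bone marrow, which is enriched for hematopoietic stem cells. They were sorted from 3 *Znf143 f/f* x *Rosa26ERT2-Cre-* mice (*Znf143 f/f*) and 3 *Znf143 f/f* x *Rosa26ERT2-Cre+* mice (*Znf143 -/-*). The mice were males of 8 to 12 weeks from 3 pairs of littermates, and both genotypes had received tamoxifen for 10 days, which activates the Cre recombinase expressed in all tissues from the *Rosa26* locus. The loxP sites flank exon 1 of *Znf143*. As only the *Znf143 -/-* mice carried Cre, the presence of Cre and the loss of ZNF143 cannot be told apart. The genotype field of the sample labels names CTCF as the deleted gene, whereas the sample titles give WT and KO. *Zfp143*, the mouse symbol of *Znf143*, was therefore examined first. Its level was 3.07, 4.43 and 3.66 normalised FPKM with *Znf143 f/f* and 0.155, 0.298 and 0.270 with *Znf143 -/-*. It fell by 3.5 on the log2 scale (SE 0.239, n = 3 per genotype, limma, adjusted p = 0.001).

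Normalised FPKM are the deposited FPKM (fragments per kilobase of gene, scaled to the depth of the library), divided here by a size factor per library. This step was needed because the third *Znf143 -/-* library had been divided by 48378188 fragments, the total of the second, whereas 57895793 fragments lay on its genes. Fragments on genes ranged from 38643255 to 57895793 per library, and a replication gene had between 306 and 30285 fragments in a library. Dividing by the size factors, which centre the ratios between libraries by construction, moved the median log2 fold change of all genes from 0.11 to 0.006. Dividing only the third *Znf143 -/-* library by its own fragments gave 0.032.

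Replication of DNA starts from origins that are licensed in G1, when the origin recognition complex, CDC6 and CDT1 load the MCM2-7 helicase onto DNA. CDC45 and the GINS complex then turn the helicase on, primase and the polymerases copy both strands, and the PCNA clamp holds the polymerases on DNA. Hematopoietic stem cells of the adult marrow are mostly quiescent, and levels of many of these transcripts rise as cells enter the cell cycle. In bulk RNA, fewer cycling cells and less RNA of a gene per cell cannot be told apart.

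ZNF143 is a zinc finger protein that binds promoters at a long motif, of which ACTACA and CCCANNATG are parts. Promoters of 37 of the 45 genes were found in the RefSeq table of GRCm38.p6, each with 250 bases before and 50 bases after the annotated start. On either strand, ACTACA was present in 7 of 37 (18.9%, against 11.8% of the 27025 genes of the table), and CCCANNATG in 7 of 37 (18.9% against 5.79%). Letters of E2F sites (TTTCGCGC, TTTGGCGC, TTTCCCGC or TTTGCCGC) were present in 15 of 37 (40.5% against 2.60%), those of CCAAT in 23 (62.2% against 41.1%), and those of CACGTG in 7 (18.9% against 8.09%). *Cdc45* and *Fen1* held ACTACA followed after 3 bases by CCCANNATG, a form searched for only after these promoters had been read, which 0.355% of all genes held. The primase gene *Prim1*, described below for its lower level in *Znf143 -/-* cells, held ACTACA without CCCANNATG. Its ACTACA was followed after 3 bases by CCCAGCAGT, which shares the letters CCCA with the second part. The 3 sites are shown with the matching letters in capitals, from the strand of the match.

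*Prim1*, chr10:128015126-128015155, plus strand: gcaagaACTACAattcccagcagtccctcc

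*Cdc45*, chr16:18812065-18812094, minus strand: ttacggACTACAataCCCAGAATGcagcta

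*Fen1*, chr19:10204135-10204164, plus strand: catgggACTACAagtCCCACAATGccacgc

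The matching base farthest upstream lies 83 bases before the RefSeq start in *Prim1*, 116 in *Cdc45* and 237 in *Fen1*, whose match is on the strand opposite to the gene. The *Cdc45* site partly overlaps the first exon of the neighbouring gene *Ufd1*, and the *Fen1* site lies within the span of *Fen1* in GENCODE. The stretches upstream of *Prim1* (203 bases) and of *Rnaseh2c* (250 bases) are shown because these genes were called lower in *Znf143 -/-* cells. Both end at the base before the first exon in GENCODE, and capitals mark any of the letters searched. *Rnaseh2c* encodes a subunit of ribonuclease H2, and no letters searched were found in its stretch. Only exact letters were searched. The stretch holds ACTACG followed after 3 bases by CCCATAAGG, which comes near the form held by *Cdc45* and *Fen1*. The near forms of *Rnaseh2c* and *Prim1* were not searched for in other promoters, so that their share over all genes is not known. Whether ZNF143 binds at them was not tested.

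*Prim1*, chr10:128014965-128015167, plus strand: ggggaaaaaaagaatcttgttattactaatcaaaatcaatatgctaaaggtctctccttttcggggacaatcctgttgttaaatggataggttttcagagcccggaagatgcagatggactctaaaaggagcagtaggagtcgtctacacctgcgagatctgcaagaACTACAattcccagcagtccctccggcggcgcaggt

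*Rnaseh2c*, chr19:5601623-5601872, plus strand: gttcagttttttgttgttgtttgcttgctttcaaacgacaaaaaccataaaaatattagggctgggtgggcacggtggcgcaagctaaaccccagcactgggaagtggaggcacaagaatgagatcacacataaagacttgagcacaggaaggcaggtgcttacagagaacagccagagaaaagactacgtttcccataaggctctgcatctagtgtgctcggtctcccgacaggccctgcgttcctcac

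Before the genotypes were compared, the libraries were compared with each other. *Znf143 f/f* 2 was the library farthest from the other *Znf143 f/f* libraries for 36 of the 45 replication genes (80%, against 68.1% of all genes tested), and *Znf143 -/-* 1 was the farthest of its genotype for 39 (86.7% against 70.3%). Both deviated to the same side in 75.6% of the replication genes, with 20 lower and 14 higher in both, compared with 61.5% of all genes. The summed level of the 6 MCM genes was 434, 330 and 424 normalised FPKM in *Znf143 f/f* 1, 2 and 3 and 359, 463 and 446 in *Znf143 -/-* 1, 2 and 3. *Rpa3* deviated the other way, with 127, 174 and 133 in *Znf143 f/f* and 178, 110 and 122 in *Znf143 -/-*. The other libraries of each genotype were close to each other. The SD of the log2 difference over the replication genes was 0.073 between *Znf143 f/f* 1 and 3 and 0.074 between *Znf143 -/-* 2 and 3, compared with 0.22 to 0.29 for the other pairs within a genotype. Both close pairs still differed by more than sampling noise (chi-square of 5.31 and 7.54 per degree of freedom, against 86.4 to 133 for the other pairs), and each library was counted as 1 replicate.

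**Figure D1:**
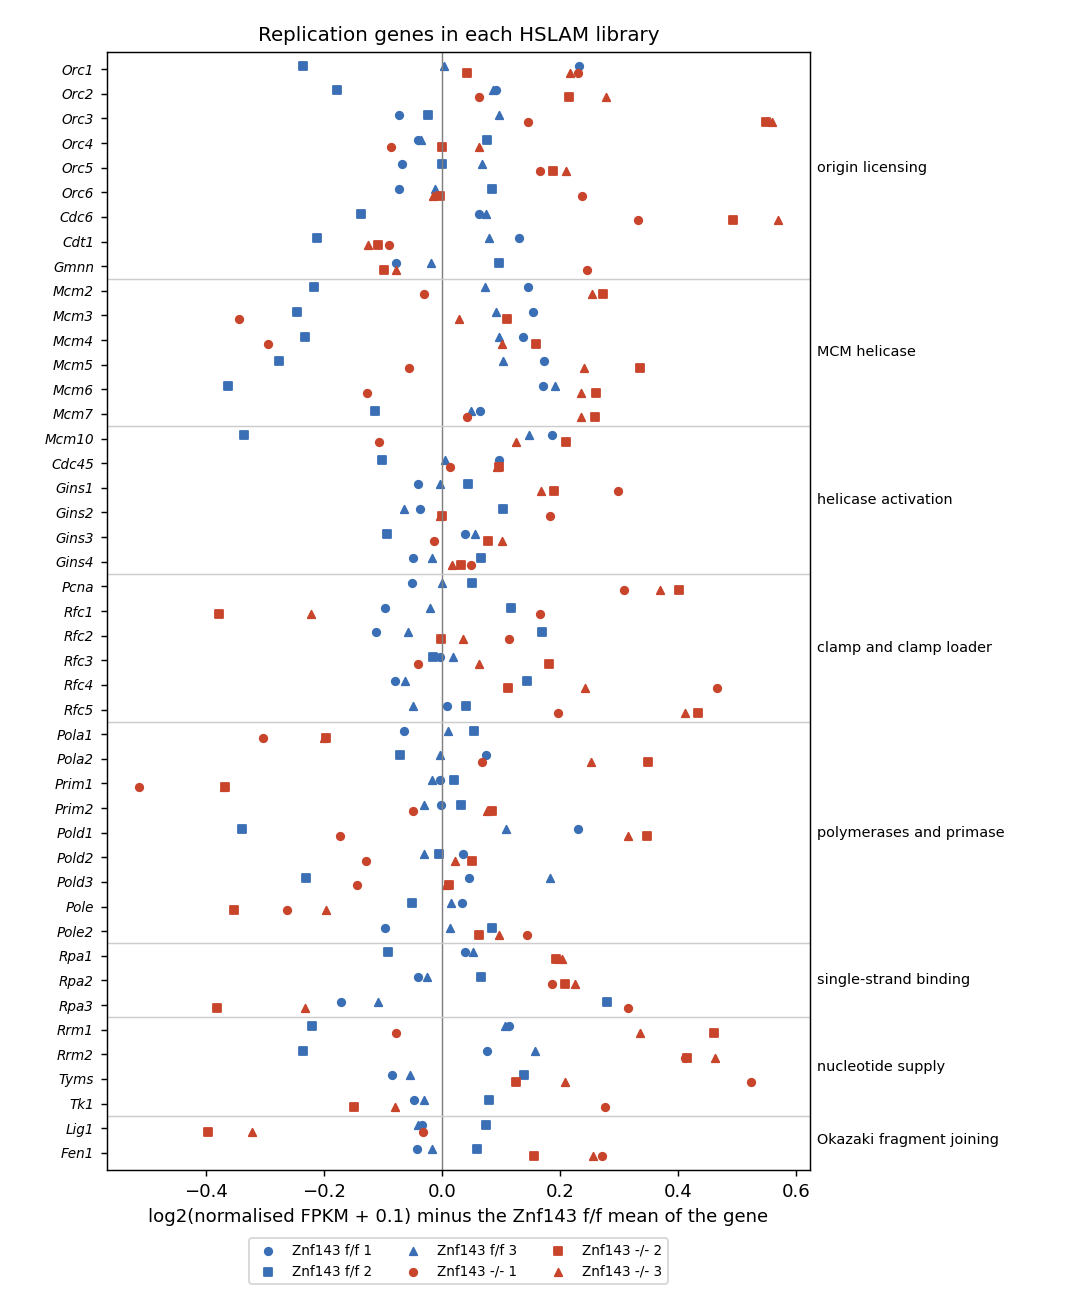
Level of each of the 45 replication genes in each library, as log2(normalised FPKM + 0.1) minus the *Znf143 f/f* mean of the gene. Blue marks *Znf143 f/f* and red *Znf143 -/-*, with circles, squares and triangles for libraries 1, 2 and 3. The blue square (*Znf143 f/f* 2) and the red circle (*Znf143 -/-* 1) lie apart from the other libraries of their genotype, on the low side for all 6 MCM genes.

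Few replication genes differed in level between *Znf143 -/-* and *Znf143 f/f* cells beyond the error of the data. Of 45 genes, *Pcna* was called higher and *Prim1* lower at an adjusted p under 0.05 (limma on log2(normalised FPKM + 0.1), Benjamini-Hochberg over 19279 genes). Over all genes tested, 3.0% were called higher and 2.99% lower, so that 1 of 45 in each direction was near the share of all genes. The median log2 fold change of the 45 genes was 0.076, with 33 above 0 (73.3%), beside a median of 0.006 and 50.7% above 0 over all genes. At an unadjusted p under 0.05, 9 of 45 were higher (20%, against 12.4% of all genes) and 3 lower (6.67% against 11.8%). No overlap between genotypes was seen for 10 genes that were higher (22.2% against 15.4%) and 3 that were lower (6.67% against 15.3%). The 95% confidence interval of the change lay within 2-fold in either direction for all 45 genes and within 1.5-fold for 37 of them, compared with 32.7% of all genes. That share was not matched for level. It takes in genes down to a mean of 0.1, whereas each replication gene had at least 306 fragments in a library. The summed level of the 45 genes, which weights abundant genes most, ranged from 1721 to 1748 normalised FPKM in *Znf143 f/f* cells. It ranged from 1863 to 1868 in *Znf143 -/-* cells, without overlap.

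The counts rested on which libraries were included. Without *Znf143 f/f* 2 and *Znf143 -/-* 1 together, an alternative chosen after the data were seen, 15 of the 45 genes were called higher and 6 lower (46.7%, against 42.4% of all genes). Without 1 of the other libraries in turn, no replication gene was called, with 5 to 7 of the 45 at an unadjusted p under 0.05. Without *Znf143 f/f* 2 alone, 2 were called higher and 1 lower (6.67%, against 11.9% of all genes), and without *Znf143 -/-* 1 alone, 4 higher and 2 lower (13.3% against 11%). With FPKM as deposited, none was called and 40 of 45 were above 0, and the calls among all genes were higher in 63.5% of cases rather than 50.1%.

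**Figure D2:**
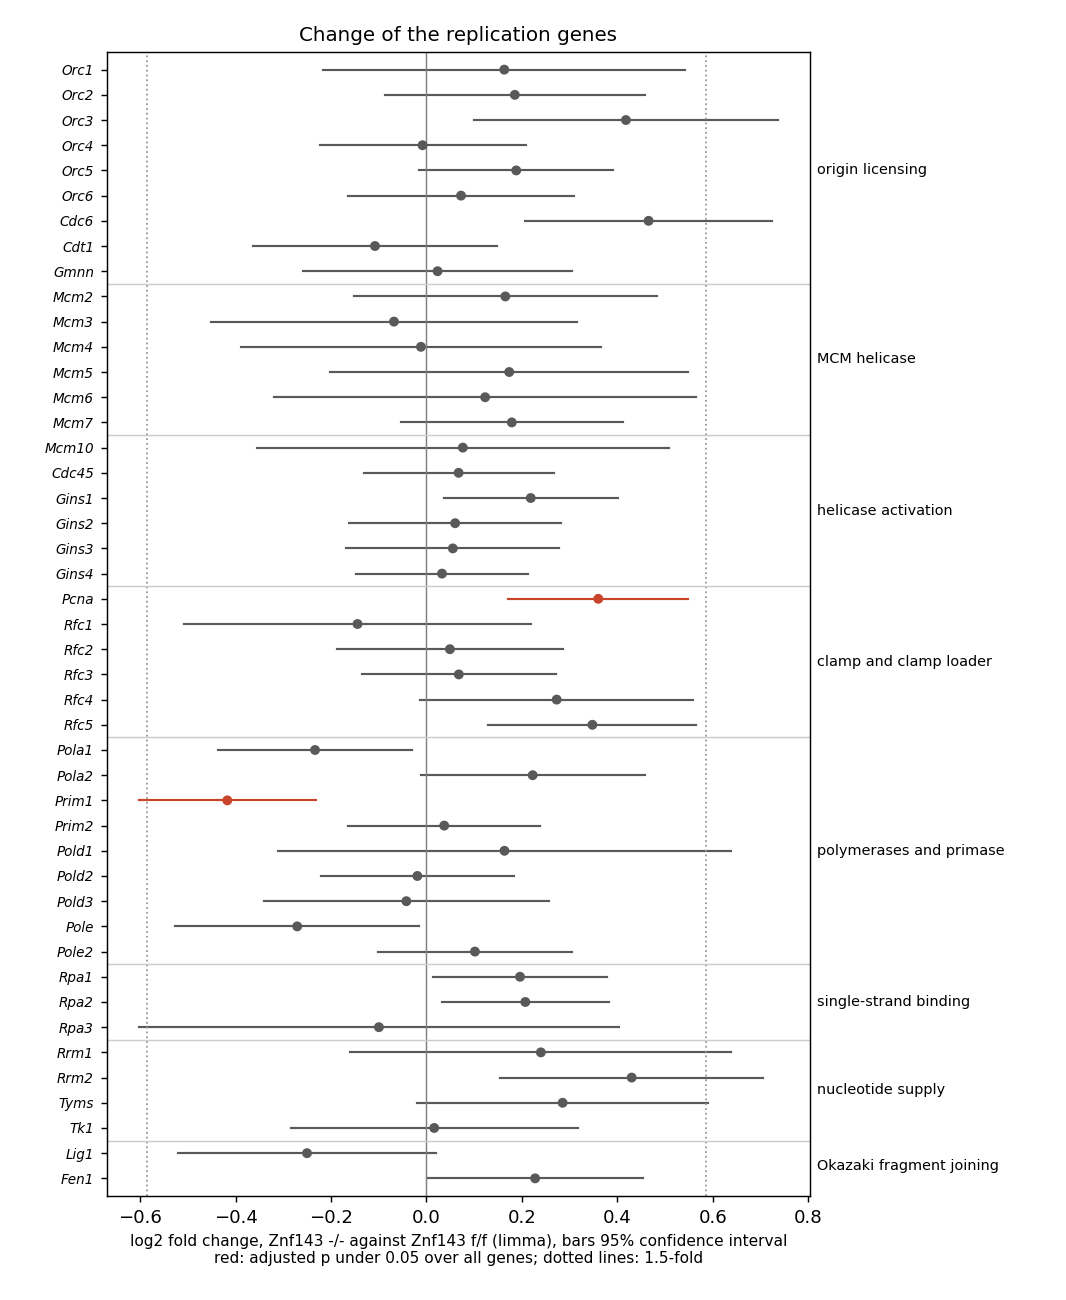
The log2 fold change of each replication gene in *Znf143 -/-* against *Znf143 f/f* cells (limma, n = 3 per genotype) with its 95% confidence interval, grouped by role. *Pcna* and *Prim1*, in red, had an adjusted p under 0.05, and the intervals of 37 of the 45 genes lay between the dotted lines at 1.5-fold.

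Among the origin licensing genes, which encode the 6 subunits of the origin recognition complex, the loading factors CDC6 and CDT1 and the CDT1 inhibitor geminin (*Gmnn*), none was called by limma. At an unadjusted p under 0.05, 2 of 9 were higher (22.2%, against 12.4% of all genes). Limma's voom on recovered fragments called 1, against 7.3% of all genes. *Cdc6*, at chr11:98907801-98923940, was the gene with the highest log2 fold change of all 45. It was at 7.48, 6.50 and 7.54 normalised FPKM in *Znf143 f/f* and at 9.04, 10.1 and 10.7 in *Znf143 -/-* cells, without overlap. The difference of 0.47 on the log2 scale (SE 0.108) missed the threshold in limma (adjusted p = 0.056) and passed it in voom (adjusted p = 0.045). *Orc3* was at 10.1, 10.4 and 11.3 in *Znf143 f/f* and at 11.7, 15.5 and 15.6 in *Znf143 -/-* cells. Its difference of 0.42 (SE 0.134, limma, adjusted p = 0.12) was carried by *Znf143 -/-* 2 and 3, and *Znf143 -/-* 1 was close to the highest *Znf143 f/f* library. *Cdt1* had the lowest log2 fold change of the group, -0.11 (SE 0.107, limma, adjusted p = 0.59), with 32.9, 25.9 and 31.7 in *Znf143 f/f* and 28.2, 27.8 and 27.5 in *Znf143 -/-* cells. With FPKM as deposited the value of *Cdt1* was 0.0058. The other genes of the group had log2 fold changes of 0.16 (*Orc1*), 0.19 (*Orc2*), -0.0082 (*Orc4*), 0.19 (*Orc5*), 0.072 (*Orc6*) and 0.023 (*Gmnn*). *Orc5* also showed no overlap, with 6.71, 7.05 and 7.39 in *Znf143 f/f* and 7.91, 8.04 and 8.16 in *Znf143 -/-* cells.

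The 6 subunits of the MCM2-7 helicase, the ring that unwinds DNA at the fork, were not called, none reached an unadjusted p under 0.05, and voom called none. Their summed level was 396 ± 57.5 normalised FPKM (SD, n = 3) in *Znf143 f/f* and 423 ± 56.1 in *Znf143 -/-* cells, so that the means differed by less than the spread within either genotype. *Mcm7* had the highest value, with 71.1, 62.8 and 70.4 in *Znf143 f/f* and 70.0, 81.3 and 80.0 in *Znf143 -/-* cells (log2 fold change 0.18, SE 0.098, limma, adjusted p = 0.32). *Mcm3* had the lowest, with 93.9, 71.2 and 89.9 in *Znf143 f/f* and 66.5, 91.1 and 86.1 in *Znf143 -/-* cells (log2 fold change -0.068, SE 0.16, limma, adjusted p = 0.84). The genotypes overlapped for every MCM gene. *Mcm2* (0.17), *Mcm4* (-0.012), *Mcm5* (0.17) and *Mcm6* (0.12) lay between them. The intervals of all 6 genes excluded a change of 1.5-fold.

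The helicase activation genes, *Mcm10*, *Cdc45* and those of the 4 GINS subunits, were not called either by limma or by voom. At an unadjusted p under 0.05, 1 of 6 was higher (16.7%, against 12.4% of all genes). That gene was *Gins1*, with 29.3, 31.1 and 30.1 normalised FPKM in *Znf143 f/f* and 37.1, 34.4 and 33.9 in *Znf143 -/-* cells, all above the *Znf143 f/f* libraries (log2 fold change 0.22, SE 0.076, limma, adjusted p = 0.15). *Gins4* had the lowest value, with 86.1, 93.2 and 88.0 in *Znf143 f/f* and 92.1, 91.1 and 90.1 in *Znf143 -/-* cells (log2 fold change 0.033, SE 0.075). *Cdc45*, whose promoter held both parts of the motif as did that of *Fen1*, was at 26.6, 23.2 and 24.9 in *Znf143 f/f* and at 25.1, 26.6 and 26.5 in *Znf143 -/-* cells, a difference of 0.067 with a 95% interval of -0.13 to 0.27. *Mcm10*, *Gins2* and *Gins3* had log2 fold changes of 0.076, 0.060 and 0.055. The exons of *Gins2* overlap those of *Gse1* by 2758 bases on the genome, and as the library kit did not mark strand, reads of overlapping exons cannot be told apart.

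Among the clamp and clamp loader genes, *Pcna* was called higher. PCNA is the ring that slides along DNA and holds the polymerases, and its gene lies at chr2:132249162-132253314. *Pcna* was at 103, 110 and 106 normalised FPKM in *Znf143 f/f* and at 132, 140 and 137 in *Znf143 -/-* cells. All *Znf143 -/-* libraries were above all *Znf143 f/f* libraries, and the mean was 28.4% higher (log2 fold change 0.36, SE 0.079, limma, adjusted p = 0.049). The call was near the threshold. It was not made with FPKM as deposited (adjusted p = 0.13), a pseudocount of 0.01 (0.051), no filter (0.051), no variance trend (0.10), a replicate block (0.21), *Znf143 -/-* 3 divided by its own fragments (0.064), or without *Znf143 f/f* 1 or 3 or *Znf143 -/-* 2 or 3 (0.18 to 0.22, limma).

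*Pcna* also has a processed pseudogene, *Pcna-ps2*, on chromosome 19. Of the windows of 50 bases in *Pcna-ps2*, 66.6% occur letter for letter in *Pcna* transcripts, so that the reads of both are hard to tell apart. *Pcna-ps2* was at 74.3, 56.3 and 70.0 normalised FPKM in *Znf143 f/f* and at 33.0, 37.1 and 38.8 in *Znf143 -/-* cells, a fall by 0.87 on the log2 scale (SE 0.128, limma, adjusted p = 0.015). With the fragments of *Pcna* and *Pcna-ps2* added together, per length of *Pcna*, the levels were 141, 139 and 143 in *Znf143 f/f* and 149, 160 and 158 in *Znf143 -/-* cells. Their log2 fold change was then 0.14 and not called (limma, adjusted p = 0.34). The higher level of *Pcna* is therefore uncertain.

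The 5 genes of replication factor C, which loads PCNA onto DNA, were not called by limma or voom. *Rfc5* was at 34.9, 35.7 and 33.5 normalised FPKM in *Znf143 f/f* and at 39.8, 46.9 and 46.2 in *Znf143 -/-* cells without overlap (log2 fold change 0.35, SE 0.091, limma, adjusted p = 0.076). *Rfc1*, which encodes the large subunit, had the lowest value, with 14.1, 16.3 and 14.9 in *Znf143 f/f* and 16.9, 11.6 and 12.9 in *Znf143 -/-* cells (log2 fold change -0.14, SE 0.152). *Znf143 -/-* 1 was above and the other *Znf143 -/-* libraries below all *Znf143 f/f* libraries for *Rfc1*. *Rfc2*, *Rfc3* and *Rfc4* had log2 fold changes of 0.049, 0.068 and 0.27.

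Of the polymerase and primase genes, *Prim1* fell. PRIM1 is the catalytic subunit of primase, which makes the RNA primers that polymerase alpha extends, and its gene lies at chr10:128015168-128030037. *Prim1* was at 29.7, 30.2 and 29.4 normalised FPKM in *Znf143 f/f* and at 20.8, 23.0 and 23.0 in *Znf143 -/-* cells. The *Znf143 f/f* libraries were nearly equal, and all *Znf143 -/-* libraries were below them. The mean was 25.1% lower (29.8 ± 0.390 against 22.3 ± 1.28, SD, n = 3), and the log2 fold change was -0.42 (SE 0.078, 95% interval -0.60 to -0.23, limma, adjusted p = 0.032). The adjusted p (limma) was 0.37 with FPKM as deposited, 0.090 after dividing *Znf143 -/-* 3 by its own fragments, 0.078 with no variance trend and 0.15 with a replicate block. It was 0.099 to 0.14 without *Znf143 f/f* 1 or 3 or *Znf143 -/-* 2 or 3.

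*Prim2*, the gene of the regulatory subunit of primase, differed little, with 9.04, 9.27 and 8.87 normalised FPKM in *Znf143 f/f* and 8.75, 9.62 and 9.56 in *Znf143 -/-* cells (log2 fold change 0.037, 95% interval -0.16 to 0.24). *Pola1*, the catalytic subunit of polymerase alpha, was at 9.27, 10.1 and 9.76 in *Znf143 f/f* and at 7.83, 8.44 and 8.43 in *Znf143 -/-* cells, lower without overlap but not called (log2 fold change -0.23, SE 0.085, limma, adjusted p = 0.16). *Pola2*, its accessory subunit, had the highest value of the group (log2 fold change 0.22, SE 0.098, limma, adjusted p = 0.23), with 31.6, 28.6 and 29.9 in *Znf143 f/f* and 31.4, 38.2 and 35.7 in *Znf143 -/-* cells. The 4 subunits of the complex of polymerase alpha and primase thus had values of either sign.

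*Pole*, the catalytic subunit of polymerase epsilon, which copies the leading strand, was at 3.51, 3.30 and 3.46 normalised FPKM in *Znf143 f/f* and at 2.84, 2.66 and 2.98 in *Znf143 -/-* cells. It was lower without overlap and not called (log2 fold change -0.27, SE 0.107, limma, adjusted p = 0.19). Its second subunit *Pole2* had a log2 fold change of 0.10. The polymerase delta genes *Pold1*, *Pold2* and *Pold3* had values of 0.16, -0.019 and -0.042. *Pold1* varied most within genotypes, with 29.9, 20.2 and 27.5 in *Znf143 f/f* and 22.6, 32.5 and 31.8 in *Znf143 -/-* cells.

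Of the RPA genes, whose product covers single-stranded DNA at the fork, *Rpa1* and *Rpa2* were higher without overlap and not called by limma or voom. *Rpa2* was at 59.6, 64.2 and 60.3 normalised FPKM in *Znf143 f/f* and at 69.8, 70.9 and 71.7 in *Znf143 -/-* cells (log2 fold change 0.21, SE 0.073, limma, adjusted p = 0.15). *Rpa1* was at 25.0, 22.9 and 25.3 in *Znf143 f/f* and at 27.9, 27.9 and 28.1 in *Znf143 -/-* cells (0.20). *Rpa3*, whose level in each library is given above, was the most abundant replication gene per length, with 145 ± 25.5 normalised FPKM in *Znf143 f/f* (SD, n = 3). Its log2 fold change of -0.10 had an SE of 0.21, the largest of the 45 genes.

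The nucleotide supply genes encode both subunits of ribonucleotide reductase (*Rrm1*, *Rrm2*), thymidylate synthase (*Tyms*) and thymidine kinase (*Tk1*). None was called by limma or voom, with 1 of 4 higher at an unadjusted p under 0.05 (25%, against 12.4% of all genes). *Rrm2*, the subunit whose level varies with the cell cycle, was at 39.5, 31.8 and 41.8 normalised FPKM in *Znf143 f/f* and at 49.9, 49.9 and 51.6 in *Znf143 -/-* cells. All *Znf143 -/-* libraries were higher (log2 fold change 0.43, SE 0.115, limma, adjusted p = 0.080). *Tk1* had the lowest value, with 29.6, 32.4 and 30.0 in *Znf143 f/f* and 37.1, 27.6 and 29.0 in *Znf143 -/-* cells (log2 fold change 0.016, SE 0.126), and its value was -0.11 without *Znf143 -/-* 1. *Rrm1* and *Tyms* had log2 fold changes of 0.24 and 0.29, with overlap between genotypes.

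Okazaki fragments are trimmed by the flap endonuclease FEN1 and sealed by DNA ligase I (*Lig1*). *Fen1* was at 4.31, 4.64 and 4.39 normalised FPKM in *Znf143 f/f* and at 5.39, 4.96 and 5.32 in *Znf143 -/-* cells without overlap (log2 fold change 0.23, SE 0.095, limma, adjusted p = 0.21). Its exons overlap those of the antisense gene *Gm10143* by 1909 bases. *Lig1* was at 35.8, 38.6 and 35.6 in *Znf143 f/f* and at 35.8, 27.8 and 29.3 in *Znf143 -/-* cells (log2 fold change -0.25, SE 0.113, limma, adjusted p = 0.23). *Znf143 -/-* 1 overlapped the *Znf143 f/f* libraries and the others were below them. Neither gene was called by limma or voom.

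Levels per length spanned from *Orc1*, with 2.14 ± 0.362 normalised FPKM in *Znf143 f/f* cells (SD, n = 3), to *Rpa3*. *Pold2* (106 ± 2.45) and *Pcna* (106 ± 3.73) came next to *Rpa3* and did not differ from each other beyond their spread, followed by *Mcm6* (95.8 ± 19.5) and *Gmnn* (95.5 ± 5.90). The lowest after *Orc1* were *Mcm10* (2.77 ± 0.543) and *Pole* (3.42 ± 0.108).

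Of the 45 genes, 7 (15.6%) are on the list of direct ZNF143 targets that the study drew up, compared with 6.98% of all genes tested. That list was chosen in part on these samples and is not independent evidence of a direction. These genes were *Orc4*, *Cdc6*, *Mcm3*, *Cdc45*, *Rfc4*, *Prim1* and *Fen1*. Of the 7, 4 had log2 fold changes above 0, 3 below 0, and *Prim1* alone was called. Their median log2 fold change was 0.067, beside 0.089 for the other 38 replication genes and -0.13 for the 1345 genes of that list among all genes tested.

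**Figure D3:**
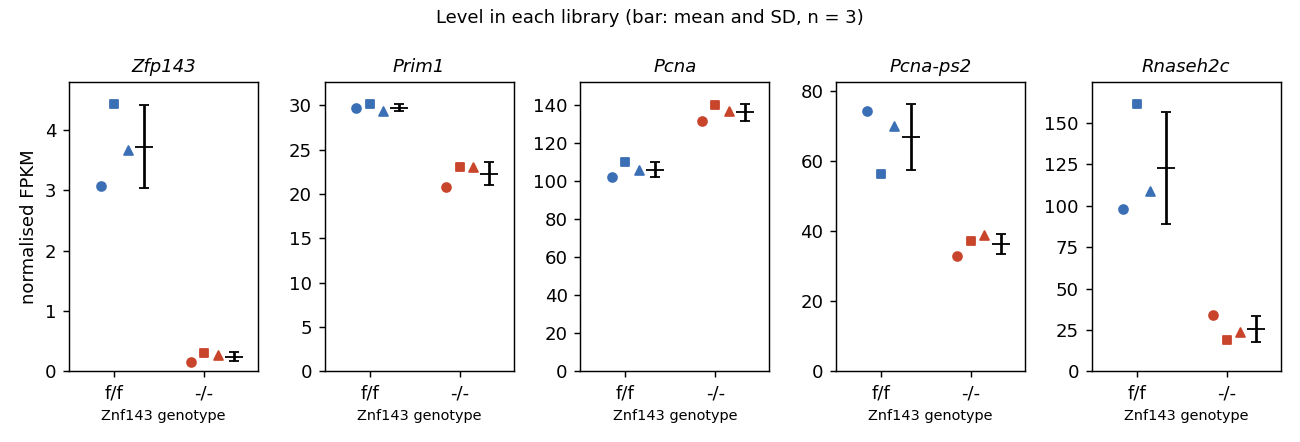
Normalised FPKM of *Zfp143*, *Prim1*, *Pcna*, *Pcna-ps2* and *Rnaseh2c* in each library, with circles, squares and triangles for libraries 1, 2 and 3 and black bars for the mean and SD (n = 3 per genotype). The genotypes did not overlap for any of the 5 genes, with *Pcna* higher and the others lower in *Znf143 -/-* cells.

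A second list held 36 further genes that act around the fork, namely kinases and factors of origin firing (8), genes of fork stability and processing (13), accessory polymerase subunits (3), chromatin assembly (4) and further enzymes of nucleotide supply (8). Limma and voom each called 1 of the 36, *Rnaseh2c*, which was lower. *Rnaseh2c*, at chr19:5601873-5607019, was at 98.0, 161 and 109 normalised FPKM in *Znf143 f/f* and at 34.1, 19.1 and 23.7 in *Znf143 -/-* cells. The mean was 79.1% lower, and the log2 fold change was -2.26 (SE 0.261, limma, adjusted p = 0.0071, and 0.058 with a replicate block). Of the 36 genes, 3 (8.33%, against 6.98% of all genes tested), *Rnaseh2c* among them, are on the study's list of direct targets. Ribonuclease H2 removes ribonucleotides that polymerases place in DNA. The genes of its other subunits were not called, with log2 fold changes of -0.14 for *Rnaseh2a*, the catalytic subunit, and 0.38 for *Rnaseh2b*. An exon of *Rnaseh2c* overlaps *Kat5* on the opposite strand by 426 bases, and *Kat5* had a log2 fold change of 0.093. The highest value of the list was that of the helicase gene *Recql4*, with 0.722, 0.373 and 0.646 in *Znf143 f/f* and 0.759, 1.29 and 1.06 in *Znf143 -/-* cells (log2 fold change 0.75, SE 0.293, limma, adjusted p = 0.18). At an unadjusted p under 0.05, 12 of 36 were higher (33.3%, against 12.4% of all genes) and 2 lower (5.56% against 11.8%). Of the 36, 28 were above 0 (77.8% against 50.7%), with a median of 0.14 beside 0.006 over all genes. Without *Znf143 f/f* 2 and *Znf143 -/-* 1 together, 16 were called higher and 2 lower, beside 42.4% of all genes called in either direction.

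Markers of mitosis were read beside the replication genes. None of 12 was called by limma or voom, with 1 higher at an unadjusted p under 0.05 (8.33%, against 12.4% of all genes). Of the 12, 8 were above 0 (66.7%, against 50.7% of all genes) and 4 below, with a median log2 fold change of 0.14. Without overlap between genotypes, 2 of the 12 were higher (*Cdk1* and *Ccnb2*, 16.7% against 15.4% of all genes) and 1 lower (*Plk1*, 8.33% against 15.3%). The kinase gene *Cdk1* was at 32.8, 37.7 and 34.2 normalised FPKM in *Znf143 f/f* and at 41.7, 39.2 and 40.2 in *Znf143 -/-* cells. The kinase gene *Plk1* was at 27.9, 21.5 and 26.5 in *Znf143 f/f* and at 20.4, 21.4 and 20.9 in *Znf143 -/-* cells. *Mki67*, the proliferation antigen, was at 6.62, 8.06 and 6.81 normalised FPKM in *Znf143 f/f* and at 7.53, 4.99 and 5.44 in *Znf143 -/-* cells. The summed level of the 12 genes ranged from 465 to 496 in *Znf143 f/f* and from 517 to 525 in *Znf143 -/-* cells.

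RNA levels of cell type markers differed between genotypes as well. Over all genes tested, 50.7% were above 0, and limma called 3.0% higher and 2.99% lower. At an unadjusted p under 0.05, 12.4% of all genes were higher and 11.8% lower. Voom called 7.3% of all genes in either direction. Of 10 stem cell markers, 8 had log2 fold changes below 0, with a median of -0.34. At an unadjusted p under 0.05, 4 (40%) were lower and 1 (10%) higher. The stem cell transcription factor gene *Mecom* fell (-0.55) and the Sca-1 gene *Ly6a* rose (1.13). The summed level of the 10 genes ranged from 489 to 545 in *Znf143 f/f* and from 764 to 811 in *Znf143 -/-* cells, and without *Ly6a* from 248 to 256 and from 175 to 225. Of 7 markers of multipotent and lymphoid progenitors, 4 of the 5 that could be tested rose (*Cd48*, 0.97, *Flt3*, 1.59, *Cd53*, 2.5, and *Dntt*, 4.88), and *Il7r* was at or near 0. Their sum ranged from 56.4 to 59.2 in *Znf143 f/f* and from 132 to 157 in *Znf143 -/-* cells. *Cd48* was thus detected and higher in cells sorted as CD48-. Of 10 granulocyte and monocyte markers, 4 of 8 tested were called higher (*Elane*, *Ctsg*, *S100a8* and *Csf1r*). *Mpo*, *Prtn3*, *Cebpe* and *S100a9* were not called. *Csf1r*, at 0.0053, 0 and 0.014 in *Znf143 f/f*, passed the filter only through *Znf143 -/-* cells. Its call is therefore no evidence of a rise. The sum ranged from 198 to 265 in *Znf143 f/f* and from 259 to 418 in *Znf143 -/-* cells. Most of it was *Prtn3*, with 226, 121 and 212 in *Znf143 f/f* and 278, 140 and 158 in *Znf143 -/-* cells (log2 fold change 0.029). *Ly6g* and *Fcgr3* were at or near 0. Of 10 erythroid markers, *Hbb-bt* alone was called by limma and fell (-1.38). At an unadjusted p under 0.05, 4 were lower and 1 higher, and the median log2 fold change was -0.66. Their sum ranged from 73.5 to 245 in *Znf143 f/f*, highest in *Znf143 f/f* 2, and from 68.3 to 73.4 in *Znf143 -/-* cells. *Car1* was at 15.1, 141 and 21.8 in *Znf143 f/f* 1, 2 and 3. Of 6 markers each, 1 of B cells, 3 of T cells and 6 of megakaryocytes could be tested. None was called by limma, with 3 megakaryocyte markers higher at an unadjusted p under 0.05 and 1 called by voom. *Cd79a*, *Ebf1*, *Cd3e* and *Cd3g* were at or near 0, whereas *Cd79b* and *Lck* were detected in all libraries. *Cd79b* was at 42.6, 48.4 and 39.6 in *Znf143 f/f* and at 45.9, 38.9 and 41.6 in *Znf143 -/-* cells. *Lck* was at 9.01, 5.42 and 7.97 in *Znf143 f/f* and at 7.04, 6.94 and 6.79 in *Znf143 -/-* cells. The part of cell composition in the values of the replication genes was not tested.

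**Figure D4:**
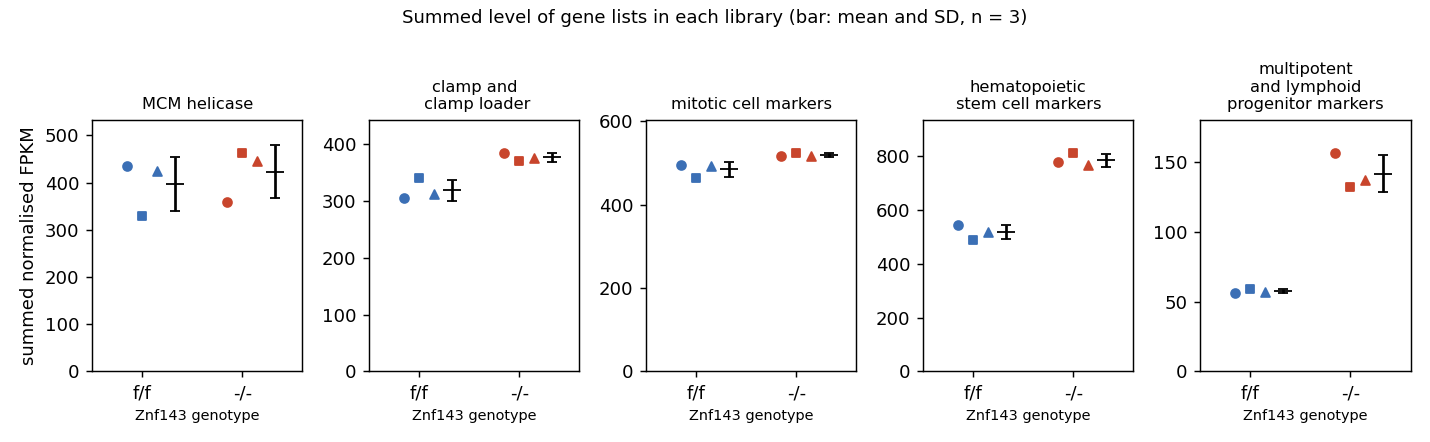
Summed normalised FPKM of 5 gene lists in each library, with circles, squares and triangles for libraries 1, 2 and 3 and black bars for the mean and SD (n = 3 per genotype). The MCM helicase overlapped between genotypes (396 ± 57.5 against 423 ± 56.1). The clamp and clamp loader sum, which includes *Pcna*, did not overlap (318 ± 18.8 against 376 ± 7.35). The progenitor markers ranged from 56.4 to 59.2 in *Znf143 f/f* and from 132 to 157 in *Znf143 -/-* cells. The stem cell sum includes *Ly6a*, without which it ranged from 248 to 256 and from 175 to 225.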

How the data were processed

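Of 25 samples in the series, the 6 RNA-seq libraries were used, and the other 19 (ChIP-seq and HiC) were not analysed here. RNA was amplified with a kit that does not mark strand. Reads had been trimmed (TrimGalore), mapped to GRCm38 (STAR) and counted per gene (FeatureCounts) by the authors, who deposited FPKM per gene and library together with the columns of their own DESeq2 comparison (mean, log2 fold change, its standard error, statistic and p-values), which were not used. FPKM times gene length gave whole fragments within 0.05 in 99.986% of values. Deposited FPKM were divided by median-of-ratios size factors over 19046 genes, because 1 library carried the divisor of another.

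Genes with a mean of at least 0.1 were tested on log2(normalised FPKM + 0.1) in R 4.3.3 with limma 3.58.1 (lmFit, eBayes with a variance trend, no block), adjusted by Benjamini-Hochberg, and called at an adjusted p under 0.05. Fold changes are on that scale, which understates the change of low genes. Exact permutation of 3 against 3 libraries cannot go below p = 0.1, so that overlap between genotypes is given instead. The study states 3 pairs of littermates, but not which libraries form a pair, and p-values measure the spread between these libraries.

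The replication genes, the further lists and the markers were chosen with earlier results of these data known. Named in full were genes called, and the highest and lowest of each role group. Genes added after their values were seen are *Orc3*, *Orc5*, *Rfc5*, *Pola1*, *Prim2*, *Pole*, *Pold1*, *Rpa1*, *Cdc45*, *Cdk1*, *Mki67*, *Pcna-ps2*, *Kat5* and the subunits of ribonuclease H2. The markers *Ccnb2*, *Plk1*, *Mpo*, *Prtn3*, *Cebpe*, *S100a9*, *Cd79b* and *Lck* were likewise added. Direct targets were matched by symbol. Genes were located in GENCODE M21 and promoter letters searched in RefSeq (GRCm38.p6) by Python 3.11.15. Alternatives were FPKM as deposited, division of *Znf143 -/-* 3 by its own fragments, voom on recovered fragments, pseudocounts of 0.01 and 1, no filter, a minimum of 1, no variance trend, a replicate block and the omission of each library. Chosen after seeing the data were the omission of 2 libraries together and the sum of *Pcna* and *Pcna-ps2*.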

Additional observations from a re-analysis of the deposited data

How the results depend on the processing

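The counts of replication genes called (1 higher, 1 lower) changed with most settings, and *Zfp143* was called in all of them. None was called higher or lower with FPKM as deposited, after dividing *Znf143 -/-* 3 by its own fragments, without the variance trend and with the replicate block, and 0 higher and 1 lower with a pseudocount of 0.01 or no filter. Voom on recovered fragments (1408 of all genes called) and a minimum of 1 gave 2 higher. Leaving out 1 library gave 0 to 4 higher and 0 to 2 lower, 223 to 2280 calls among all genes instead of 1154, a median log2 fold change of the replication genes of 0.061 to 0.13, and 0 to 2 further replication genes higher. Without *Znf143 f/f* 2 and *Znf143 -/-* 1 together, the counts were 15 higher and 6 lower, 8108 among all genes, and 16 higher and 2 lower among the further replication genes.

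With FPKM as deposited the median of the replication genes was 0.19, and 7 genes below 0 came to lie above it, with a shift of more than the SE for *Orc4* (0.10), *Cdt1* (0.0058) and *Pold2* (0.095). Without *Znf143 -/-* 1, 9 genes changed sign, with such a shift for *Tk1* (-0.11). Same-numbered libraries did not deviate together (r = -0.095, -0.088 and 0.035), so the numbers were not taken as pairs. The replicate block gave 191 calls among all genes, 0 further replication genes lower, and adjusted p-values of 0.15 for *Prim1*, 0.21 for *Pcna* and 0.058 for *Rnaseh2c* (limma). *Rnaseh2c* was called in 15 of 16 alternatives, *Prim1* in 8 and *Pcna* in 6.

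With 3 libraries per genotype, the 95% intervals of 8 replication genes (*Orc3*, *Cdc6*, *Prim1*, *Pold1*, *Rpa3*, *Rrm1*, *Rrm2* and *Tyms*) reached beyond 1.5-fold. Why *Znf143 f/f* 2 and *Znf143 -/-* 1 stood apart was not tested.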
